A study of Mus musculus with 58 samples.

Results

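The 7 GABA-A receptor subunit genes described here are Gabra2, Gabra3, Gabra4, Gabra5, Gabrb1, Gabrb2 and Gabrd, taken by gene name from a count table of 9636 genes. They were measured by bulk poly(A) RNA-seq in 58 libraries of somatosensory cortex from C57BL/6J mice that were 2 to 4 months old at the procedures. The 4 conditions were 5xCHI+SB (19 libraries), 5xCHI+vehicle (20 libraries), sham+SB (5 libraries) and sham+vehicle (14 libraries), with 35 libraries from females and 23 from males. 5xCHI is a model of repeated mild traumatic brain injury in which the closed head is struck once a day on 5 days, and sham mice went through 5 sham procedures. SB is SB239063, a small-molecule inhibitor of the p38 MAP kinase, given intraperitoneally at 20 mg/kg in saline 30 minutes after each injury or sham procedure, and vehicle was the saline alone. All 58 libraries carry the chronic time point, which the design places at about 18 and 34 days after the last procedure without saying which library belongs to which day. The labels name 8 cohorts, F1 to F4 of females and M1 to M4 of males. Each cohort held 5xCHI+SB, 5xCHI+vehicle and sham+vehicle libraries, while sham+SB libraries came from cohorts F1, F2, M1 and M2.

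GABA-A receptors are pentameric chloride channels opened by the inhibitory transmitter GABA, and most hold alpha, beta and either gamma or delta subunits. GABA binds where a beta subunit meets an alpha subunit, and the alpha subunit largely sets sensitivity to benzodiazepines. Receptors with gamma subunits cluster at synapses through gephyrin, whereas receptors that pair the delta subunit with the Gabra4 product, and many that hold the Gabra5 product, lie outside synapses and carry tonic inhibition. Receptors with the Gabra2 product are enriched at the axon initial segment of cortical pyramidal neurons. These are bulk values, so fewer cells of a type and less RNA per cell cannot be told apart.

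Library totals ran between 28316280 and 49158277 counts, and every gene of the table was counted in every library. Summed levels of 8 excitatory neuron marker genes were 4884 to 9667 CPM (counts scaled to the size of the library) across the libraries, and those of 8 upper cortical layer genes were 610 to 1680 CPM. Of markers of neighbouring regions, 5 of 9 listed striatal genes were in the table, with a sum of 196 to 1258 CPM, and 4 of 8 thalamic genes, with 130 to 240 CPM. Of the libraries, 4 stood far from the rest on the leading principal components, namely F 5xCHI+SB 8, F sham+vehicle 1, F sham+vehicle 7 and M sham+vehicle 2. Values that move most without them are given with and without them. The labels do not say whether each library is a separate mouse, so p-values measure the spread between libraries.

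Promoter windows are shown for the 2 pairs whose levels moved most closely together across libraries, Gabra3 with Gabra4 and Gabrb1 with Gabrb2. Windows of 300 bases around an annotated start were found in RefSeq (build GRCm38.p6) for 6 of the 7 members. RefSeq gives 2 starts for Gabra3, 1 for Gabra4, 2 for Gabrb1 and 3 for Gabrb2, and the window of start number 1 in the table is shown for each. They are written 5′ to 3′ on the gene's own strand, with capitals marking matches, on either strand, to a GC box (GGGCGG), an EGR motif (GCGNGGGCG) or a TATA box (TATAAA). The Gabra3 window is chrX:72656870-72657169 on the minus strand, the Gabra4 window chr5:71658259-71658558 on the minus strand, the Gabrb1 window chr5:71657671-71657970 on the plus strand and the Gabrb2 window chr11:42420190-42420489 on the plus strand.
Gabra3: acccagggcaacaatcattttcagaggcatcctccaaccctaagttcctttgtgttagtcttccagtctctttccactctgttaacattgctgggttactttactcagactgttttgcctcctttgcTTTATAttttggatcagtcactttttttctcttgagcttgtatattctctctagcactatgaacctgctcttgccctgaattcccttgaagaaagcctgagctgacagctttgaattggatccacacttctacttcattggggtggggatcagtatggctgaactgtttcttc
Gabra4: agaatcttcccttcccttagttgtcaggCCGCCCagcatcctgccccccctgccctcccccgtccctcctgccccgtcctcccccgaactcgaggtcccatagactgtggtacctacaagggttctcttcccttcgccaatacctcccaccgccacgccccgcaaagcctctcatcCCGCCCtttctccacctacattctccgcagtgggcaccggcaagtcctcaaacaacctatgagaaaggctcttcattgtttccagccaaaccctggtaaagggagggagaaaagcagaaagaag
Gabrb1: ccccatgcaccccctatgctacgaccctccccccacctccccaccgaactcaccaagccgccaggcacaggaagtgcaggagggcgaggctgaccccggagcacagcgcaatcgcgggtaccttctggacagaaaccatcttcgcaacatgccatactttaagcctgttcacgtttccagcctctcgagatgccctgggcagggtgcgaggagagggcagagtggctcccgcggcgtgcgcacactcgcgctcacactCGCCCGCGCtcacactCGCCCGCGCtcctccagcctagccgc
Gabrb2: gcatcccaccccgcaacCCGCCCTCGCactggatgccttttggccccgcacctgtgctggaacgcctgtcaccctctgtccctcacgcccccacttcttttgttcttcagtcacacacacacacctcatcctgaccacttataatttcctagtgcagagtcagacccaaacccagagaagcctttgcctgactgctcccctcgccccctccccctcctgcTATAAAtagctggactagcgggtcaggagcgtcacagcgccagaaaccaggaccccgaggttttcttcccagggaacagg

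The Gabra3 window held no CpG and 43% GC, against a median of 7 CpG and 52.7% GC over 32851 windows of the same length, and its capitals are 1 TATA match, a motif found in 13.6% of windows. The Gabra4 window held 12 CpG, with 2 GC box matches, a motif found in 35.7% of windows. The Gabrb1 window held 25 CpG, and its capitals are 2 EGR matches, a motif found in 5.55% of windows. In the Gabrb2 window, with 11 CpG, 1 EGR match overlaps 1 GC box match, and a TATA match lies nearer the start. The second Gabrb1 window held 9 CpG, as did the other Gabrb2 windows, and these 3 windows matched none of the motifs, while the second Gabra3 window held no CpG and 1 TATA match. None of the 4 windows shown matched a cyclic AMP response element (TGACGTCA) or an AP-1 motif (TGANTCA) on either strand. Gabra4 and Gabrb1 lie head to head on chromosome 5 with annotated starts 387 bases apart and transcripts that overlap there. The strand setting of the counting is not given in the labels, so reads from that overlap may not be told apart between Gabra4 and Gabrb1.

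Levels of the members were set side by side in sham+vehicle cortex. Per kilobase of exon, the mean level over the 14 libraries was highest for Gabra3, at 35.9 ± 4.88 CPM per kb (SD), followed by Gabrd at 26.9 ± 3.62, Gabrb2 at 21.8 ± 10.3, Gabra4 at 19.6 ± 3.29, Gabra5 at 17.2 ± 2.81, Gabrb1 at 11.6 ± 2.05 and Gabra2 at 9.69 ± 1.80 CPM per kb. Gabrb2 overlaps both of its neighbours in this order, since its single libraries ran between 7.93 and 37.6 CPM per kb. Gabrb2 differed from each of Gabrd, Gabra4, Gabra5 and Gabrb1 by less than the larger SD of the pair. So did Gabra4 from Gabra5 and Gabrb1 from Gabra2. Per kilobase of the longest transcript the order changed, with Gabrb2 at 34.8 ± 16.4 and Gabra4 at 29.0 ± 4.87 CPM per kb, both above Gabrd at 28.6 ± 3.84 CPM per kb.

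The first question is whether repeated injury changed the subunit transcripts at the chronic time. Levels here are in CPM scaled by TMM factors, and a gene passed when its Benjamini-Hochberg adjusted p over all 9636 genes was under 0.05. Gabrb2, which encodes a beta subunit common in cortical receptors, had 51.7, 153 and 214 CPM as lowest, median and highest in 5xCHI+vehicle libraries, against 50.4, 135 and 239 CPM in sham+vehicle libraries. Gabrb1, encoding another beta subunit, had 133, 169 and 208 CPM in 5xCHI+vehicle libraries, against 115, 156 and 208 CPM in sham+vehicle libraries. The groups overlapped over nearly their whole ranges for both genes.

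Among the alpha subunit genes, Gabra2 had 49.1, 73.3 and 95.3 CPM as lowest, median and highest in 5xCHI+vehicle libraries, against 51.9, 74.8 and 98.9 CPM in sham+vehicle libraries. Gabra3 had 124, 148 and 177 CPM in 5xCHI+vehicle libraries, against 88.0, 141 and 173 CPM in sham+vehicle libraries. Gabra4 had 96.9, 119 and 152 CPM in 5xCHI+vehicle libraries, against 69.7, 118 and 163 CPM in sham+vehicle libraries. All 3 genes overlapped between the groups, and the lowest Gabra3 and Gabra4 values both came from the library F sham+vehicle 1. Gabra5 had 39.9, 52.6 and 64.1 CPM in 5xCHI+vehicle libraries, against 39.1, 50.6 and 65.7 CPM in sham+vehicle libraries. Gabrd, the delta subunit gene, had 61.8, 72.8 and 87.7 CPM in 5xCHI+vehicle libraries, against 65.7, 75.8 and 105 CPM in sham+vehicle libraries, and the groups overlapped below the highest sham+vehicle value.

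**Figure D1:**
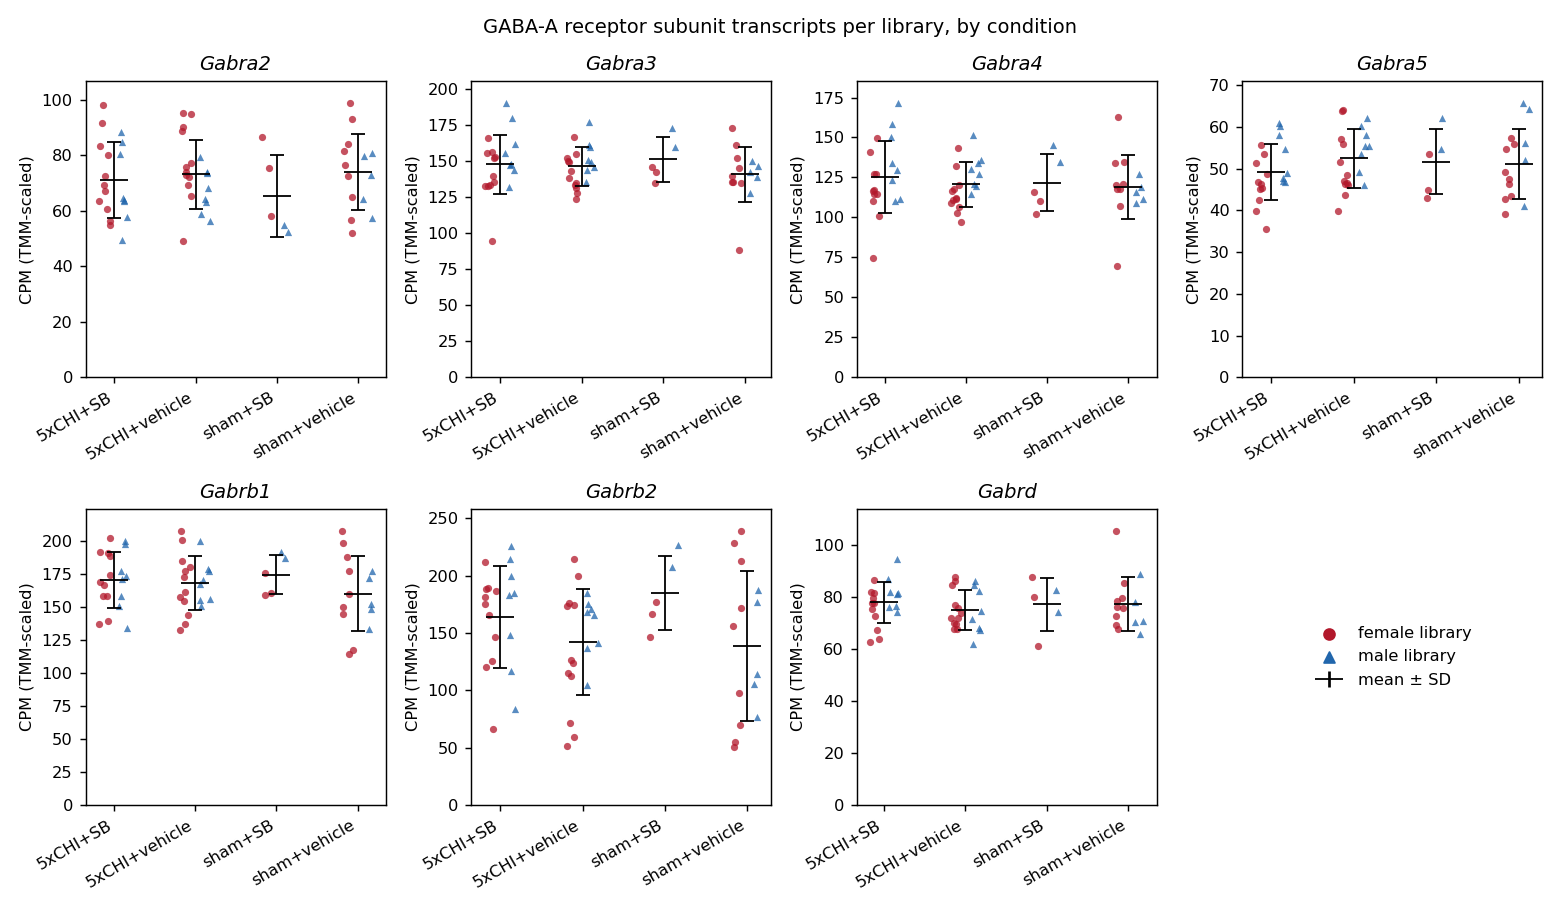
CPM of the 7 subunit genes in each of the 58 libraries (points, females as circles and males as triangles), by condition, with the mean and SD of each condition in black. The conditions overlap for all 7 genes, and Gabrb2 has the widest spread, between 50.4 and 239 CPM.

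With the cohort in the model, 0 of 7 members passed for 5xCHI+vehicle over sham+vehicle, and 0 of 9636 genes did (0%) in edgeR, in DESeq2 and in limma voom. At an unadjusted p under 0.05 edgeR counted 169 genes (1.75%), none of them a member. The log2 fold changes were 0.09 ± 0.07 (SE) for Gabrb1, 0.09 ± 0.14 for Gabrb2, 0.07 ± 0.06 for Gabra3, 0.05 ± 0.07 for Gabra4, 0.04 ± 0.06 for Gabra5, -0.03 ± 0.08 for Gabra2 and -0.03 ± 0.06 for Gabrd. The median over the members was 0.05, against -0.00067 over all genes. The 95% intervals reached from -12.6% to 17.1% over the members other than Gabrb2, and from -12.8% to 29.4% for Gabrb2. Without the 4 far libraries the value turned negative for Gabrb2, at -0.08, and for Gabra4, at -0.01, and positive for Gabrd, at 0.04, while Gabra3 had 0.02 and Gabrb1 0.01, all short of the threshold. Without the far library F sham+vehicle 1 alone, Gabra3 had 0.03 and Gabra4 0.0028. Without M sham+vehicle 4, which is not among the far libraries, Gabrb2 had 0.01.

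Within single cohorts the direction varied. The Gabrb2 difference between 5xCHI+vehicle and sham+vehicle means was positive in 5 of 8 cohorts and ran between -0.44 in F4 and 0.97 in M1 on the log2 scale. The Gabra2 difference was positive in 4 of 8 cohorts and ran between -0.18 in F3 and 0.82 in F2, where the only sham+vehicle library is F sham+vehicle 1. By sex, the Gabrb2 log2 fold change of injury was -0.13 ± 0.17 in females and 0.31 ± 0.23 in males, and the male minus female difference of 0.44 ± 0.28 did not pass in edgeR (adjusted p = 0.786). Without the 4 far libraries these 3 values were -0.39, 0.23 and 0.62. The male injury value was 0.15 without M sham+vehicle 4, and the female value ran between -0.26 without F sham+vehicle 7 and -0.03 without F sham+vehicle 5. No member passed in either sex or for the difference between sexes, where the share of all genes called was 0% too in edgeR, DESeq2 and limma voom. An unadjusted p under 0.05 in edgeR was reached by 3.14% of all genes for injury in females, 3.55% in males and 6.13% for the difference, and by no member.

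The next comparison is of the p38 inhibitor with vehicle in injured mice. Gabra5, whose product is known for tonic inhibition, had 35.4, 47.9 and 61.0 CPM as lowest, median and highest in 5xCHI+SB libraries, against 39.9, 52.6 and 64.1 CPM in 5xCHI+vehicle libraries. Gabrb2 had 65.9, 181 and 226 CPM in 5xCHI+SB libraries, against 51.7, 153 and 214 CPM in 5xCHI+vehicle libraries. Gabrd had 62.5, 77.7 and 94.7 CPM in 5xCHI+SB libraries, against 61.8, 72.8 and 87.7 CPM in 5xCHI+vehicle libraries. Medians were lower for Gabra5 and higher for Gabrb2 and Gabrd in 5xCHI+SB libraries, with overlapping groups for each gene.

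Again 0 of 7 members passed for 5xCHI+SB over 5xCHI+vehicle, and 0 of 9636 genes (0%) did in edgeR, DESeq2 and limma voom. At an unadjusted p under 0.05 there were 680 genes (7.06%) in edgeR and no member. The value nearest the threshold was that of Gabra5, with a log2 fold change of -0.10 ± 0.06, a 95% interval from -13.7% to 1.41% and an adjusted p of 0.734. Its within-cohort difference was negative in 7 of 8 cohorts, the exception being M1 at 0.25. The negative values reached -0.28 in F3 but were small in F1 (-0.02), F2 (-0.03) and F4 (-0.01, with 1 5xCHI+SB library). Gabrb2 had 0.16 ± 0.13, with an interval from -6.25% to 33.4%, and its within-cohort difference was positive in 6 of 8 cohorts. With the transcript length index of each library, defined with the cohort results, as a covariate it was 0.03. Gabrd had 0.07 ± 0.05, Gabra4 0.05 ± 0.07, Gabra3 0.01 ± 0.06, Gabrb1 0.01 ± 0.06 and Gabra2 -0.01 ± 0.07. In females alone the Gabrb2 value was 0.24 ± 0.16 and in males 0.08 ± 0.19, and the male value was 0.04 without M 5xCHI+SB 4. No member passed in either sex, as for all genes (0%) in edgeR, DESeq2 and limma voom, and no member was among the 7.21% of genes in females or the 1.88% in males with an unadjusted p under 0.05 in edgeR. The same held for the difference between the sexes, at 0.913% of genes.

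Injured mice given SB were also set against sham+vehicle mice. Gabra3 had 94.5, 148 and 190 CPM as lowest, median and highest in 5xCHI+SB libraries, against 88.0, 141 and 173 CPM in sham+vehicle libraries, and Gabra4 had 74.5, 124 and 172 CPM against 69.7, 118 and 163 CPM. The groups overlapped throughout. None of the 7 members passed, as for all 9636 genes (0%) in edgeR, DESeq2 and limma voom, while 1211 genes (12.6%) and no member had an unadjusted p under 0.05 in edgeR. The members' log2 fold changes ran between -0.06 for Gabra5 and 0.25 for Gabrb2, with a median of 0.08 against 0.00036 over all genes. The Gabrb2 value of 0.25 ± 0.14 was 0.07 without the 4 far libraries and 0.01 with the same index as a covariate. Without the 4 far libraries Gabra3 and Gabra4 each had 0.03, against 0.08 and 0.10 with them, and Gabrb1 had 0.01, against 0.10. This comparison shares its sham+vehicle libraries with the injury comparison and its 5xCHI+SB libraries with the SB comparison.

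In sham mice, SB was compared with vehicle over 5 and 14 libraries. Gabrb2 had 147 CPM in F sham+SB 1, 166 in F sham+SB 2, 177 in F sham+SB 3, 227 in M sham+SB 1 and 207 in M sham+SB 2. The sham+vehicle libraries had 50.4, 135 and 239 CPM as lowest, median and highest. All 5 sham+SB values lay above the sham+vehicle median and inside its range, but that median includes cohorts with no sham+SB library. Within cohorts the sham+SB libraries were below sham+vehicle in F1, with 166 and 177 CPM against 213 and 229 CPM. They were above it in F2, with 147 against 54.7 CPM, in M1, with 207 against 77.0 CPM, and in M2, with 227 against 177 CPM. Gabra2 had 86.5, 75.3 and 58.0 CPM in F sham+SB 1, 2 and 3 and 52.3 and 55.0 CPM in M sham+SB 1 and 2, against 51.9, 74.8 and 98.9 CPM as lowest, median and highest in sham+vehicle libraries. The 2 male sham+SB values are near the bottom of the sham+vehicle range, and the groups overlap.

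No member passed for sham+SB over sham+vehicle (0 of 7, against 0% of all genes in edgeR, DESeq2 and limma voom), and no member was among the 676 genes (7.02%) with an unadjusted p under 0.05 in edgeR. Gabrb2 had a log2 fold change of 0.41 ± 0.22, with an interval from -2.02% to 79.2% and an adjusted p of 0.677. That value was 0.22 without the 4 far libraries and 0.15 with the transcript length index as a covariate. Gabra2 had -0.20 ± 0.13, with an interval from -27.5% to 3.92%, and Gabrb1 had 0.16 ± 0.10. The other 4 members ran between -0.01 for Gabrd and 0.09 for Gabra3. Without the 4 far libraries Gabrb1 had 0.07, Gabra3 0.03 and Gabrd 0.04. The interaction of injury and SB was called for 0 of 7 members and 0% of all genes, with 133 genes (1.38%) and no member at an unadjusted p under 0.05. For Gabrb2 it was -0.24 ± 0.25.

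**Figure D2:**
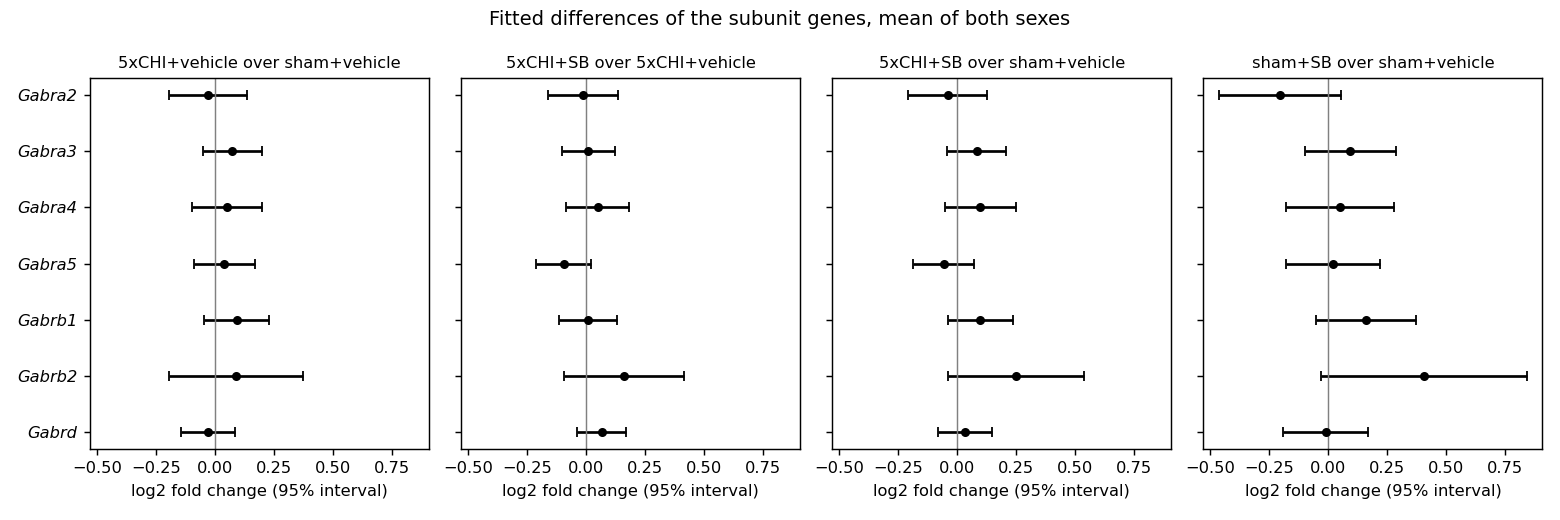
Log2 fold change and 95% interval of each member in 4 comparisons fitted by edgeR with cohort as a term, averaged over the sexes. Every interval includes 0, and the widest, for Gabrb2 in sham mice, runs from -0.03 to 0.84.

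Across all 58 libraries the members differed in how much they varied. Gabrb2 spanned 4.74-fold, between 50.4 CPM in F sham+vehicle 7 and 239 CPM in F sham+vehicle 5, both of cohort F3. Its coefficient of variation was 33.4%, which is at percentile 99 of all genes, whose median was 12.4%. Gabra2, the next most variable, had 18.4% (percentile 86.5), and Gabrd, the least variable member, had 11.1% (percentile 36). The remaining 4 members had 11.9% to 15.2%.

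Levels differed between cohorts for some members. Gabrb2 averaged 71.4 ± 16.6 CPM (SD, n = 5) in F4, 111 ± 45.5 (n = 6) in F2, 163 ± 50.8 (n = 14) in F3 and 182 ± 23.3 (n = 10) in F1. In F4 the values were 65.9 CPM in the 5xCHI+SB library, 51.7 and 71.8 CPM in the 5xCHI+vehicle libraries and 69.9 and 97.4 CPM in the sham+vehicle libraries. All 5 lay below the lowest F1 library, at 146 CPM. Gabra2 ran the other way, with 92.1 ± 5.34 CPM in F4, 82.4 ± 15.8 in F2, 71.9 ± 5.81 in F1 and 67.8 ± 13.3 in F3, and the lowest F4 library, at 84.1 CPM, was above the highest F1 library, at 77.4 CPM. The test of any difference among the 4 female cohorts in edgeR called Gabrb2 (adjusted p = 1.79e-05) and Gabra2 (adjusted p = 0.00616). That is 2 of 7 members, beside 4816 of 9636 genes (50%). The same 2 members, and 57.2% of genes, had an unadjusted p under 0.05. The other 5 members had adjusted p between 0.109 for Gabrb1 and 0.597 for Gabrd.

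Among male cohorts Gabrb2 was again lowest in cohort number 4, with 110 ± 21.0 CPM (SD, n = 5) in M4, 153 ± 44.9 in M1, 176 ± 33.5 in M3 and 196 ± 26.1 in M2. All 5 M4 libraries, at 83.9 to 141 CPM, were below the lowest M2 library, at 168 CPM. The male cohort test called 0 of 7 members, beside 369 genes (3.83%), and Gabrb2 had an adjusted p of 0.117 in edgeR. It was the 1 member with an unadjusted p under 0.05, beside 19.9% of all genes. The number of genes called among male cohorts ran between 28 without M sham+vehicle 1 and 769 without F sham+vehicle 7. For Gabrb2 the adjusted p was 0.0079 without the 4 far libraries and 0.0347 without F sham+vehicle 7 alone, a female library that enters this test through the shared estimate of spread. Cohorts also differed in depth, with mean totals between 31183900 counts in F4 and 42140500 in F1. The summed level of 8 excitatory neuron markers had cohort medians of 6020 CPM in F4, 6610 in F2, 7447 in F3 and 8095 in F1, the same order as Gabrb2. Astrocyte markers had that order too, with 3457, 4351, 4561 and 4740 CPM. So had interneuron, microglia, hippocampal and upper-layer markers. Deep-layer, endothelial, myelin, oligodendrocyte precursor, striatal and thalamic markers had other orders. In males the excitatory neuron markers had 6624 CPM in M4, 7494 in M3, 7799 in M1 and 8012 in M2, with M1 and M3 the other way round than for Gabrb2. With groups and cohorts fitted, Gabrb2 and the mean log2 CPM of the excitatory neuron markers had r = 0.37 and rho = 0.26 over 58 libraries (adjusted permutation p = 0.0144 and 0.118). For Gabrb2 r was 0.61 with hippocampal, 0.44 with astrocyte, 0.35 with upper-layer, 0.09 with interneuron and 0.03 with microglia markers. The part of depth and of neuron or other cell content in the Gabrb2 and Gabra2 differences was not tested.

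**Figure D3:**
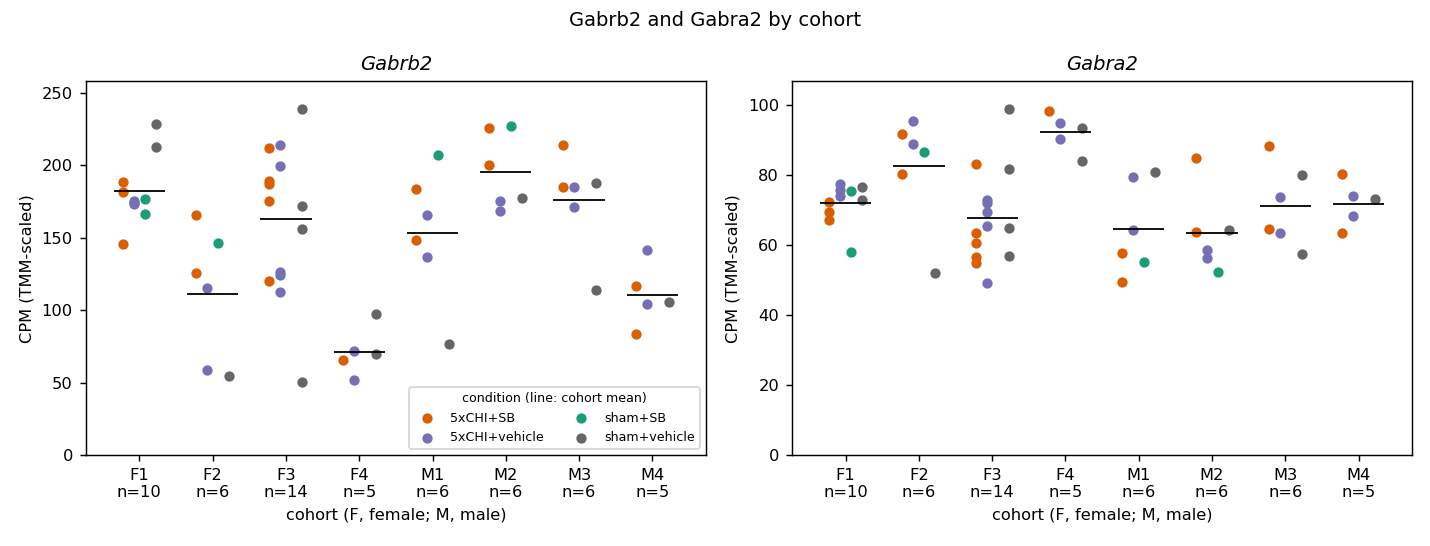
CPM of Gabrb2 and Gabra2 in each library by cohort, coloured by condition, with a line at each cohort mean. Cohort F4 has the lowest Gabrb2 mean (71.4 CPM) and the highest Gabra2 mean (92.1 CPM).

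The Gabrb2 level also went with a property of the whole library. A transcript length index was taken per library as the mean log2 CPM of the 954 genes with the longest exon sequence minus that of the 954 with the shortest, centred on 0 and leaving out the receptor genes. Exon length in the GENCODE annotation used is 13838 bases for Gabrb1, 7640 for Gabra2, 6360 for Gabrb2, 6083 for Gabra4, 3924 for Gabra3, 2974 for Gabra5 and 2875 for Gabrd. F sham+vehicle 7, with 50.4 CPM of Gabrb2, had an index of -0.43, and F sham+vehicle 5, with 239 CPM, had 0.23. Over the 58 libraries, after groups and cohorts were fitted, Gabrb2 and the index correlated with Pearson r = 0.88 and Spearman rho = 0.89 (permutation p = 1e-05 each, the smallest that 100000 resamples can give). Without the 2 libraries farthest on the index, r was 0.86, and within the 6 cohorts of at least 6 libraries it was 0.50 to 0.99. Gabrb1 had r = 0.79 with the index and rho = 0.76, Gabrd r = -0.63 and rho = -0.57 (permutation p = 1e-05 each). Without the 2 farthest libraries r was 0.73 for Gabrb1 and -0.59 for Gabrd. Within cohorts it was 0.57 to 0.96 for Gabrb1, and for Gabrd it was negative in 4 of 6 cohorts, with 0.46 in M1 and 0.18 in M2. Gabra2, which is longer than Gabrb2, and Gabra5, which is close to Gabrd in length, each had r = -0.04 with the index, Gabra3 had 0.28 and Gabra4 0.33. Within cohorts the sign varied for Gabra2, between -0.70 in M1 and 0.77 in F1. It varied for Gabra5 too, between -0.67 in F2 and 0.40 in F1. For Gabra3 r was 0.05 to 0.55 within cohorts and for Gabra4 0.12 to 0.63. The cohort means of the index were -0.21 in F4, -0.15 in F2, 0.08 in F3 and 0.11 in F1, and -0.07 in M1, -0.06 in M4, 0.02 in M3 and 0.05 in M2. With the index as a covariate the female cohort test called Gabrb2 (adjusted p = 3.27e-05) and Gabra2 (adjusted p = 0.0328), and it called Gabrd as well (adjusted p = 0.0329). The share of all genes called with the covariate is not given here, and the test without it called 50%.

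Upper-layer markers moved most closely with 3 of the 4 alpha subunit genes. Marker levels in these correlations are means of log2 CPM, and members and markers were taken as residuals after groups and cohorts were fitted. The permutations did not allow for the fitted terms, so their p are too small and those near 0.05 are uncertain. The mean of 8 upper-layer marker genes correlated with Gabra4 at r = 0.77 (rho = 0.64), with Gabra3 at r = 0.77 (rho = 0.63) and with Gabra2 at r = 0.71 (rho = 0.67). Without the 2 libraries farthest on that mean r was 0.66, 0.67 and 0.63. Without fitting groups and cohorts r was 0.76, 0.73 and 0.21. Gabra5, the other alpha subunit gene, had r = -0.29 and rho = -0.32 with that mean (permutation p = 0.0288 and 0.0137, adjusted 0.0672 and 0.0385) and r = -0.25 without the 2 farthest libraries. Of the other members, Gabrb1 had r = 0.35 with it, Gabrb2 0.35 and Gabrd 0.32 (adjusted permutation p = 0.0228, 0.0262 and 0.0398). Without the 2 farthest libraries these were 0.20, 0.15 and 0.42. Gabra2 had r = -0.61 (rho = -0.61) with 11 myelin and oligodendrocyte genes and r = -0.72 (rho = -0.67) with 7 oligodendrocyte precursor genes, and r was -0.59 and -0.63 without the 2 farthest libraries. Without fitting groups and cohorts r was -0.25 and -0.48. Each fitted r and rho above for Gabra2, Gabra3 and Gabra4 over 58 libraries had a permutation p of 1e-05, which is 7e-05 for r and 7.47e-05 for rho after adjustment over 112 relations. With the myelin and the precursor genes r was -0.38 and -0.51 for Gabra3, -0.36 and -0.48 for Gabra4 and -0.37 and -0.51 for Gabrd (adjusted permutation p of at most 0.015). It was 0.11 and 0.11 for Gabra5, -0.05 and 0.10 for Gabrb1 and 0.03 and 0.20 for Gabrb2. In the library F sham+vehicle 1, which had the lowest Gabra3 at 88.0 CPM and the lowest Gabra4 at 69.7 CPM, the upper-layer genes summed to 610 CPM and the myelin genes to 21143 CPM, the lowest and the highest sums of all libraries. The upper-layer sum over the conditions was 970 to 1671 CPM in 5xCHI+SB, 921 to 1329 in 5xCHI+vehicle, 952 to 1292 in sham+SB and 610 to 1680 in sham+vehicle libraries. The part of layer or glial content in the members' levels was not tested.

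**Figure D4:**
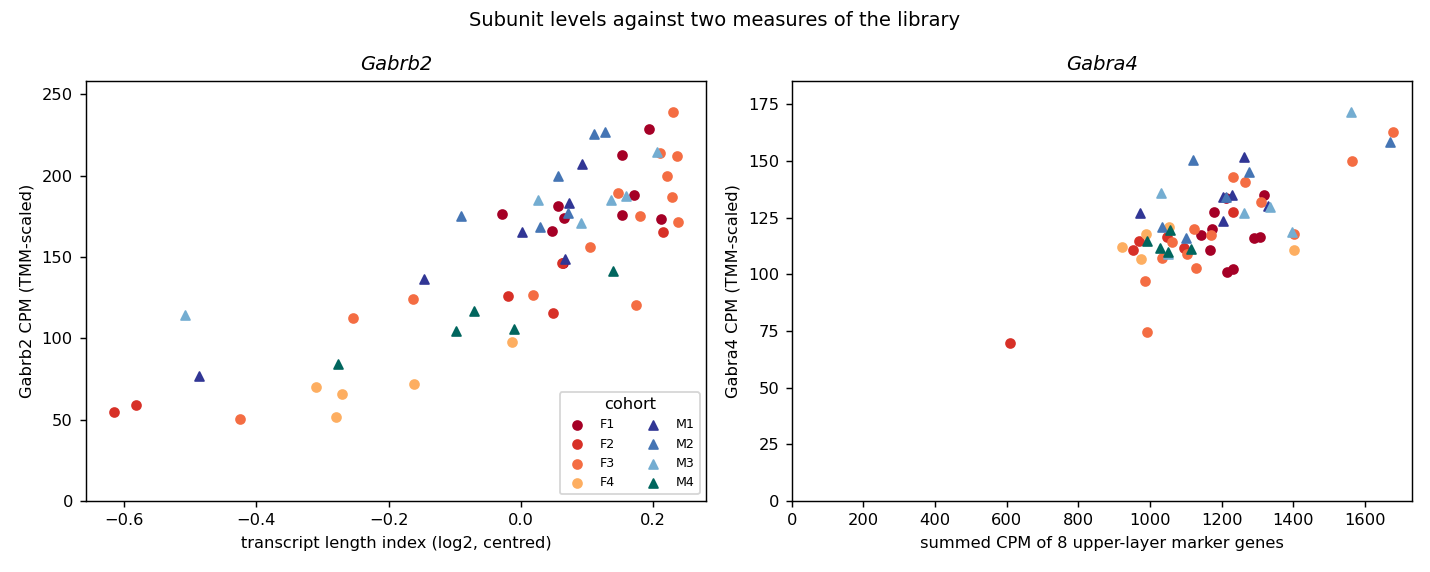
Gabrb2 CPM against the transcript length index (left) and Gabra4 CPM against the summed CPM of 8 upper-layer marker genes (right), 1 point per library, coloured by cohort with females as circles and males as triangles. The lowest Gabrb2 value, 50.4 CPM, lies at an index of -0.43, and the lowest Gabra4 value, 69.7 CPM, at an upper-layer sum of 610 CPM.

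Some members moved together across libraries. Of their 21 pairs, 13 had an adjusted permutation p under 0.05 for Pearson r of residual log2 CPM, adjusted over 112 relations with members and library measures. The permutations did not allow for the fitted groups and cohorts, so that count may be too high. The share of all gene pairs that would pass was not computed. Of 9625 genes outside the receptor family, 393 (4.08%) had r above 0.8 with Gabrb2 and 223 (2.32%) with Gabrb1. With Gabra4 there were 156 (1.62%) and with Gabra3 75 (0.779%). Gabra3 and Gabra4 were the closest, with r = 0.90 and rho = 0.83 (r = 0.83 without the 2 farthest libraries), and within single cohorts r was 0.77 to 0.98 in 6 of 6. Gabrb1 and Gabrb2 followed, with r = 0.88 and rho = 0.87 (r = 0.84 without the 2 farthest), and 0.54 to 0.94 within 6 of 6 cohorts. These pairs had a permutation p of 1e-05, and the genes of each pair lie on different chromosomes, X and 5 for Gabra3 and Gabra4, 5 and 11 for Gabrb1 and Gabrb2. Without fitting groups and cohorts r was 0.90 for Gabra3 with Gabra4 and 0.84 for Gabrb1 with Gabrb2. The head-to-head neighbours Gabra4 and Gabrb1 had r = 0.58 and rho = 0.63 (permutation p = 1e-05), again 0.58 without the 2 farthest libraries and 0.46 to 0.71 within cohorts.

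Gabra2 correlated with Gabra4 (r = 0.63, rho = 0.64) and with Gabra3 (r = 0.61, rho = 0.60), each with a permutation p of 1e-05, and r was 0.62 and 0.59 without the 2 farthest libraries. These values depended on fitting groups and cohorts, and without it r was 0.20 and 0.24. With Gabrb2, Gabra2 had r = -0.06 and rho = 0.07 (permutation p = 0.633 and 0.611), and r = -0.42 without fitting. Gabrd had negative values with Gabrb2 (r = -0.59, rho = -0.48, permutation p = 2e-05 and 0.00023) and with Gabrb1 (r = -0.57, rho = -0.49, permutation p = 1e-05 and 8e-05). Adjusted, these were 0.000124 and 0.00112 with Gabrb2 and 7e-05 and 0.000448 with Gabrb1, and r was -0.41 and -0.44 without the 2 farthest libraries. Without fitting groups and cohorts r was -0.20 with Gabrb2 and -0.36 with Gabrb1. Within cohorts the Gabrd relation was mixed, positive in 3 of 6 cohorts with Gabrb2 and in 2 of 6 with Gabrb1. Gabra5 had r = 0.11 with Gabra3 (permutation p = 0.394) and 0.08 with Gabra4 (permutation p = 0.538). With Gabra2 it had r = -0.39 and rho = -0.32 (permutation p = 0.00303 and 0.0162, adjusted 0.0103 and 0.0442), r = -0.42 without the 2 farthest libraries, and a positive r in 2 of 6 cohorts.

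**Figure D5:**
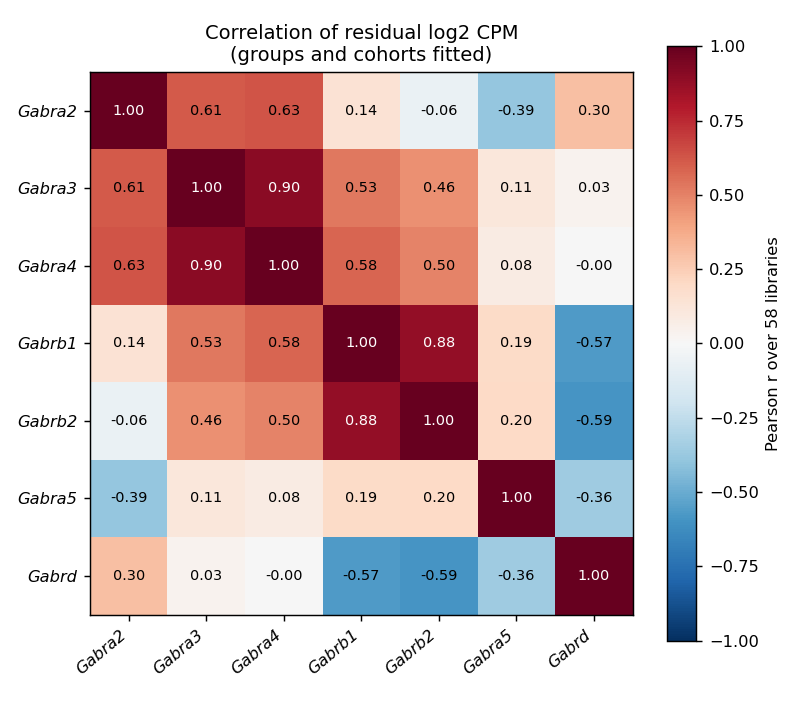
Pearson correlation of residual log2 CPM between the 7 members over 58 libraries, with groups and cohorts fitted, red for positive and blue for negative. Gabra3 with Gabra4 (0.90) and Gabrb1 with Gabrb2 (0.88) are the closest pairs, and Gabrd is negative with both beta subunit genes.

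Genes outside the receptor family with the most similar residual pattern over the 58 libraries were picked by Pearson r among 9625 genes, as a description. Gabrb2 was closest to Nbea (r = 0.96), encoding a large trafficking scaffold of neurons, Camsap2 (0.96), encoding a protein of microtubule minus ends, and Nrcam (0.95), a neuronal adhesion gene. Gabrb1 was closest to the scaffold gene Dlg2 (0.93), Sesn3 (0.93) and the dendritic microtubule gene Map2 (0.91). Gabra4 was closest to the calcineurin subunit gene Ppp3cb, the calcium channel subunit gene Cacna2d1 and the kinase gene Cdk17, each at 0.93. Gabra3 was closest to Mal2 (0.92), Cdk17 (0.91) and Arpp19 (0.90). Gabra2 was closest to Calb1 (0.84), encoding the calcium buffer calbindin, Camk2n1 (0.83), an inhibitor of CaM kinase, and Sub1 (0.81). Gabrd was closest to Selenow (0.84), the neuropeptide gene Npy (0.83) and Necab3 (0.82). Gabra5 had no gene above 0.8, with Got2, a mitochondrial aminotransferase gene, at 0.68, Psme3 at 0.66 and Anxa7 at 0.65.

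Male and female levels were compared over cohort means, 4 cohorts of each sex. The male minus female difference in log2 CPM was 0.34 ± 0.31 (SE) for Gabrb2, 0.17 ± 0.08 for Gabra4, 0.13 ± 0.08 for Gabra5, 0.12 ± 0.07 for Gabra3, 0.04 ± 0.09 for Gabrb1, -0.02 ± 0.06 for Gabrd and -0.15 ± 0.09 for Gabra2. None of the 7 passed in limma (adjusted p = 0.988 for each), nor did any of 9636 genes (0%), with 289 genes (3%) and no member at an unadjusted p under 0.05. Gabra5 ranged between 41.0 and 65.7 CPM in males, with a median of 55.3, and between 35.4 and 64.1 CPM in females, with a median of 46.7. With every library taken as a unit, which ignores the shared cohorts, the Gabra5 difference was 0.18 (adjusted p = 0.0301).

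Other genes of GABA signalling were counted on lists. For scaffold and trafficking genes of the inhibitory synapse (23 of 24 listed genes measured), GABA synthesis, release, uptake and breakdown (8 of 9), GABA-B receptors and effectors (6 of 8) and chloride transport and neurosteroid synthesis (10 of 12), 0 passed in edgeR for injury, for SB in injured mice, for 5xCHI+SB over sham+vehicle or for SB in sham mice. For injury the scaffold list had a median log2 fold change of 0.01, with 14 genes higher and 9 lower, and its smallest p belonged to Mdga1 (0.17 ± 0.10), a modulator of synaptic adhesion, and Insyn1 (-0.10 ± 0.07), an inhibitory synapse protein. Among GABA-B genes these were Kctd12 (0.12 ± 0.08) and the receptor gene Gabbr2 (0.08 ± 0.06), in the chloride list the kinase genes Wnk1 (0.08 ± 0.07) and Wnk3 (0.09 ± 0.09), and among synthesis and uptake genes Aldh5a1 (0.04 ± 0.05), which encodes an enzyme of GABA breakdown. All had adjusted p above 0.99. Single libraries moved several of these values: without M sham+vehicle 4, Mdga1 had 0.09 and Gabbr2 0.0022, without M sham+vehicle 2, Insyn1 had -0.04, Wnk1 0.03 and Wnk3 0.05, without F sham+vehicle 1, Kctd12 had 0.07, and without F sham+vehicle 7, Aldh5a1 had 0.02.

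For SB in injured mice 10 of these 47 genes had an unadjusted p under 0.05, against the 7.06% of all genes above. None did for injury, against 1.75% of all genes. For 5xCHI+SB over sham+vehicle 6 scaffold, 1 synthesis and uptake, 2 GABA-B and 2 chloride genes did, against 12.6%. For SB in sham mice these counts were 3, 1, 1 and 1, against 7.02%. For SB in injured mice Gabarap, encoding a protein of receptor trafficking and autophagy, had a log2 fold change of -0.12 ± 0.04 (adjusted p = 0.655) and the receptor regulator Shisa7 0.12 ± 0.05 (adjusted p = 0.689). Car2, a carbonic anhydrase gene, had -0.20 ± 0.07, and Slc12a5, the neuronal chloride exporter gene, 0.11 ± 0.04 (adjusted p = 0.655 each). The vesicular GABA transporter gene Slc32a1 had 0.14 ± 0.06, Kctd16 0.20 ± 0.10 and the receptor gene Gabbr1 0.05 ± 0.03 (adjusted p between 0.689 and 0.722). For 5xCHI+SB over sham+vehicle the scaffold genes Mdga1 (0.34 ± 0.10) and Gabarap (-0.16 ± 0.05) had the smallest p, with an adjusted p of 0.329 each. In sham mice Gabbr2 had 0.23 ± 0.09 and Slc12a5 0.16 ± 0.07, the smallest p of the GABA-B and chloride lists, with an adjusted p of 0.677 each. Without M sham+vehicle 4 these values were 0.13 and 0.10.

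Genes of these lists were also tested between cohorts. Among female cohorts 18 of 23 scaffold genes, 7 of 8 synthesis and uptake genes, 6 of 6 GABA-B genes and 6 of 10 chloride genes passed, beside 50% of all genes and 2 of 7 members. Among male cohorts 2 of 8 synthesis and uptake genes passed, Slc32a1 (adjusted p = 0.0449) and the GABA-synthesising enzyme gene Gad1 (adjusted p = 0.0497), and 1 of 10 chloride genes, Slc12a5 (adjusted p = 0.0284). None of the 23 scaffold or 6 GABA-B genes passed there, beside 3.83% of all genes.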

How the data were processed

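Somatosensory cortex of 58 mouse libraries was sequenced after poly(A) selection with a directional kit, per the labels' protocols. The deposited table gives raw read counts per gene for 9636 genes. The authors made them with tools that the submitters' processing notes list as STAR, featureCounts and DESeq2, on build GRCm39 (mm39). Tool versions, the strand setting and the gene filter are not given in these sources.

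Groups and cohorts came from the labels. Counts were scaled by TMM and tested with edgeR 4.0.16 (quasi-likelihood, robust; R 4.3.3) on 8 groups of sex, injury and treatment plus cohort within sex (44 residual degrees of freedom). The low-count filter of edgeR removed 0 genes. Comparisons averaged the sexes, and p-values were adjusted by Benjamini-Hochberg over all genes at 0.05. Sex was tested with limma 3.58.1 on cohort means. Log2 CPM used a prior count of 2. Correlations used residuals of that model with permutation tests of 100000 resamples, two-sided. Exon lengths came from GENCODE vM21 by gene name for 9549 genes (99.1%), and starts and promoter windows from RefSeq GRCm38.p6. Scripts were tested on simulated data. Totals of 28316280 to 49158277 counts leave the members at no fewer than 1012 counts per library, so spread between libraries and not counting error limits precision. Library pairs of a group differed by more than sampling noise (chi-square per degree of freedom at least 9.83).

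Members and gene lists were chosen with earlier results of these data known. Named genes were the members, up to 2 genes of each list with the smallest p, the 3 genes most like each member and, in the closing observations, genes most opposite to a member, chosen after their values were seen. Some genes that this rule names are not reported here. Alternatives were RLE factors, DESeq2 1.42.0, limma voom, a mean count of at least 1000, no cohort term, a replicate block, and leaving out each library. Leaving out the 4 far libraries (more than 3.5 scaled MADs from the median on a leading component) and the length covariate were chosen after seeing the data.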

Additional observations from a re-analysis of the deposited data

Results flagged for a closer look

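Of 28 member and group combinations with 5 to 9 libraries, 2 held a library far from the rest of its group by Dixon's criterion, where chance gives about 1 in 20. In the 9 F sham+vehicle libraries the lowest Gabra3 value was 88.0 CPM, in replicate 1 of cohort F2, with the nearest other library at 135 CPM, a gap of 0.553 of the group's range against a critical value of 0.493. In the same group the highest Gabrd value was 105 CPM (105.5), in replicate 7 of cohort F3, with the nearest other library at 85.3 CPM, a gap of 0.536 of the range. Both libraries are among the 4 that stood far from the rest on the leading components. No member's injury or SB effect differed between sexes by its test.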

How the results depend on the processing

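No member passed for injury, SB or their interaction under any alternative, nor did any of 9636 genes. Values that changed sign all missed the threshold. Without the 4 far libraries, the log2 value for injury was -0.010 for Gabra4, -0.083 for Gabrb2, 0.039 for Gabrd, -0.0025 for Aldh5a1 and -0.024 for Wnk3, and that for SB in sham mice was -0.029 for Gabra4 and 0.037 for Gabrd. With the transcript length index as a covariate it was -0.023 for Gabrb2 and 0.014 for Gabrd (injury), -0.0065 for Gabra3 and -0.048 for Gabrb1 (SB in injured mice), -0.020 for Gabrb1 (5xCHI+SB over sham+vehicle), -0.0078 for Gabra4 and 0.074 for Gabrd (SB in sham mice) and 0.034 for Gabrb2 (sex difference of the SB effect). With no cohort term Gabrd had 0.012 for SB in sham mice. Leaving out single libraries gave these ranges: for injury, Gabra2 -0.075 to 0.016, Gabra5 -0.0020 to 0.056 and Gabrd -0.053 to 0.0027; for SB in injured mice, Gabra2 -0.052 to 0.021, Gabra3 -0.015 to 0.033 and Gabrb1 -0.0089 to 0.025; for 5xCHI+SB over sham+vehicle, Gabra2 -0.089 to 0.0025; for SB in sham mice, Gabra4 -0.012 to 0.077, Gabra5 -0.049 to 0.083 and Gabrd -0.067 to 0.057.

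The replicate numbers of the labels did not pair libraries (median correlation of deviations 0.0005 over 62 pairs, 21 of them above 0.1). With a replicate block, Gabra5 had 0.024 for 5xCHI+SB over sham+vehicle, the female cohort test called 2602 genes in place of 4816 and the male test 90 in place of 369, and Gabra2 among female cohorts had an adjusted p of 0.149. The male cohort count was 613 in DESeq2, 1258 without the 4 far libraries, 904 with the length covariate and 28 to 769 when single libraries were left out (lowest without M sham+vehicle 1, highest without F sham+vehicle 7). It was 52 without M 5xCHI+SB 6, 106 without M 5xCHI+SB 1, 242 without M 5xCHI+SB 5, 116, 191 and 185 without M 5xCHI+vehicle 1, 2 and 3, and 222 without M sham+vehicle 3. The covariate also gave adjusted p of 0.00524 for Gabrb2 and 0.0442 for Gabrd among male cohorts, and Gabrb1 among female cohorts had 0.0255 without F sham+vehicle 7. With every library as a unit, 416 genes differed by sex, and Gabrd turned to 0.022. Leaving out cohorts turned Gabrb1 to -0.0023 (F4) and Gabrd to 0.0055 (M1) and 0.011 (M4). Without fitting groups and cohorts, 8 of the 21 genes most like a member were named again. The causes were not tested.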

Other observations

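Some genes moved opposite to a member across the 58 libraries, with groups and cohorts fitted. Gabrb2 had its most negative Pearson r with Cox4i1 (-0.91), a respiratory chain subunit gene. Gabra2 had its most negative r with Jup (-0.91), the plakoglobin gene, and reached -0.85 with Olig1, a transcription factor gene of oligodendrocytes. The highest Gabra3 value, 190 CPM, and the highest Gabra4 value, 172 CPM, came from M 5xCHI+SB 2 and M 5xCHI+SB 8, where the upper-layer genes summed to 1671 and 1561 CPM.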
